A study of Mus musculus with 11 samples.

Results

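The Snrpn-Ndn imprinted domain lies on mouse chromosome 7 and was followed here through 6 genes, Ube3a, Snrpn, Ndn, Magel2, Mkrn3 and Peg12, out of 21631 protein-coding genes on chromosomes 1 to 19 and X. The genes were chosen by name as known imprinted genes of the domain, and each was taken as its gene body with 5 kb on both sides. From the first to the last of these regions the domain spans chr7:59223750-62469510 (GRCm38, also called mm10), a length of 3.245761 Mb. Imprinted genes are transcribed from the copy of 1 parent. In this domain an imprinting control region at the Snrpn promoter carries DNA methylation on the maternal copy from the egg onwards, and the paternal copy is the one transcribed. The zinc finger protein ZFP57 binds such control regions at the methylated letters TGCCGC and, with KAP1 and SETDB1, keeps the methylated copy under trimethylation of histone H3 lysine 9 (H3K9me3). Ube3a is the exception, since in neurons it is transcribed from the maternal copy.

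The data came from CUT&Tag-BS, in which an antibody against a histone mark directs protein A-Tn5 to cut and tag nearby DNA, and bisulfite conversion then reads CpG methylation on those same fragments. The cells were E14, an embryonic stem cell line of 129/Ola background, grown in serum with leukemia inhibitory factor, with no genetic change or treatment named in the labels. The 11 samples were 8 bisulfite libraries and 3 controls made without bisulfite, 1 for each of H3K4me1 (found at enhancers), H3K9me3 (found in heterochromatin) and H3K27me3 (laid down by Polycomb). H3K4me1 and H3K9me3 were each sequenced with bisulfite as run 1 and run 2, with reads of 35 and 75 bp, and the 4 H3K27me3 bisulfite libraries started from 4000, 20000, 100000 and 250000 cells. All other samples used 250000 cells. The deposited counts are not split by parental copy, so every level below is over both copies.

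A call is 1 reading of a CpG as methylated or unmethylated, and a methylation level is the methylated share of all calls. Calls per library on chromosomes 1 to 19 and X ran from 377316 (H3K27me3, 4000 cells) to 37159887 (H3K27me3, 250000 cells), with 9684591 in H3K4me1 run 2 and 6301370 in H3K9me3 run 2. The level over all calls was 81.9% in H3K9me3 run 2, 32.5% in H3K4me1 run 2 and 32.5% in H3K27me3 from 250000 cells. Intervals in brackets are 95% Wilson intervals, and for a level of 0 the limit is the share that 3 calls would make of the total. Both cover counting error only, because calls on 1 fragment and amplified copies are not independent. The runs of a mark were taken as 1 library sequenced again, from earlier work on these data and not from a statement in the labels, so no value has a replicate error. Of 10 listed stem cell genes, including Pou5f1 and Nanog, 10 had a unified H3K4me1 peak and 1 had a unified H3K27me3 peak, where 47.4 and 42.3% of all protein-coding genes had one. Of 8 listed fibroblast genes, which would mark feeder cells, 3 had an H3K4me1 peak and 4 an H3K27me3 peak, near those shares, and the part of feeder cells in the results was not tested.

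Promoter sequences of 4 of the genes follow, from 250 bases before to 50 bases into the transcript, as RefSeq gives them for GRCm38.p6. They are written 5′ to 3′ along the gene, with each CpG in capitals. Snrpn is shown for its internal start, which lies next to its H3K9me3 peak, though most of that peak and its calls lie past the printed bases. Ndn, Magel2 and Peg12 are shown because they held the deepest calls.
Snrpn internal promoter (chr7:60005150-60005449, minus strand): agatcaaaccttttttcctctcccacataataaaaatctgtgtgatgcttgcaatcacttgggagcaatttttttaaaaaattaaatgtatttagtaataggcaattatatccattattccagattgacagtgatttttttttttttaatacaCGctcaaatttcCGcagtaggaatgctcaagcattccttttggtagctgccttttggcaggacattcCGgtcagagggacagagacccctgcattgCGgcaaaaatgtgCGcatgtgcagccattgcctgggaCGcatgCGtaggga
Ndn promoter (chr7:62348027-62348326, plus strand): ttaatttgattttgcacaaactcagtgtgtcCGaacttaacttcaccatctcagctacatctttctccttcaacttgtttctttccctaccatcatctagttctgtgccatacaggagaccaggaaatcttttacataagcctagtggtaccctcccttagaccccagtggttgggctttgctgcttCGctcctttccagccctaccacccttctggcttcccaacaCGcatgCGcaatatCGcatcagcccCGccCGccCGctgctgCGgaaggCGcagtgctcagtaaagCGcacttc
Magel2 promoter (chr7:62376729-62377028, plus strand): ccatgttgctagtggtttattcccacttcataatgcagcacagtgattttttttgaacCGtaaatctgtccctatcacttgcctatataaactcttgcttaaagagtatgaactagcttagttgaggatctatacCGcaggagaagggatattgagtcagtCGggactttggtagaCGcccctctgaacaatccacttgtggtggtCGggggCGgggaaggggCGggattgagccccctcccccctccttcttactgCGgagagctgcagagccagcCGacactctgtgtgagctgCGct
Peg12 promoter (chr7:62464461-62464760, minus strand): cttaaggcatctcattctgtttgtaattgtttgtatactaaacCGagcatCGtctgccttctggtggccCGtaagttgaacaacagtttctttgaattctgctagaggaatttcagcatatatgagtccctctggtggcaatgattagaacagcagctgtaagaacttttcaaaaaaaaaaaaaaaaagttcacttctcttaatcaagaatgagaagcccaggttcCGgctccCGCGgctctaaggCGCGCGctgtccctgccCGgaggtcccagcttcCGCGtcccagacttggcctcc

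The internal Snrpn sequence held 7 CpGs, Magel2 10, Ndn 11 and Peg12 12, while the promoters not printed held 15 (Mkrn3) and 29 (Ube3a). Over all promoter entries the median was 7.0 and the quartiles were 3.0 and 20. RefSeq lists 3 further Snrpn starts upstream, at 60047978, 60140225 and 60450177, with 4, 3 and 2 CpGs. Those 3 sequences were 79.7 to 81.1% identical to each other and 47.3 to 50.2% identical to the internal one. TGCCGC was searched on both strands and found in the internal Snrpn promoter, as its reverse complement GCGGCA at the start site, and in none of the other 8 entries of the 6 genes. It occurs in 3807 of 32585 promoters (11.7%). The letters GCATGCG, searched on both strands after the sequences had been seen, occurred in the 4 Snrpn promoters and in Ndn, against 1167 of 32585 promoters (3.58%). In these 5 promoters the matches on the opposite strands overlap, within cgcatgcg.

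By their peaks, the 6 genes divided by mark. Ube3a had H3K4me1 peaks, Snrpn had H3K9me3 peaks, and Ndn, Magel2, Mkrn3 and Peg12 had H3K27me3 peaks in the unified list of each mark, which merges its libraries. No gene had unified peaks of a second mark. Calls of a second mark did occur without a peak. Within 500 bp of the Ndn start, H3K9me3 calls per CpG were 4.26 (run 2) and 1.74 (run 1) times the library's mean. At the Magel2 start they were 0.645 (run 2) and 3.05 (run 1) times. The count was 1 of 6 for H3K4me1, where 47.4% of all protein-coding genes had a peak, 1 of 6 for H3K9me3 (16.3% of all genes) and 4 of 6 for H3K27me3 (42.3% of all genes). With 6 genes, none of these counts is a result about the group. The single lists of H3K4me1 run 1, run 2 and control had a peak at 1 of the 6 genes each, Ube3a, where 42.9, 41.0 and 42.9% of all genes had one. Those of H3K9me3 run 1, run 2 and control had a peak at 1 each, Snrpn, where 11.3, 15.5 and 10.8% of all genes had one. For H3K27me3, the list from 4000 cells had a peak at 0 of the 6 genes (2.15% of all genes), and that from 20000 cells at 3, Ndn, Magel2 and Peg12 (26.1%). The lists from 100000 cells (35.8%), 250000 cells (37.7%) and the control (41.6%) each had a peak at the same 4 genes. Mkrn3 was the gene that the list from 20000 cells lacked.

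**Figure D1:**
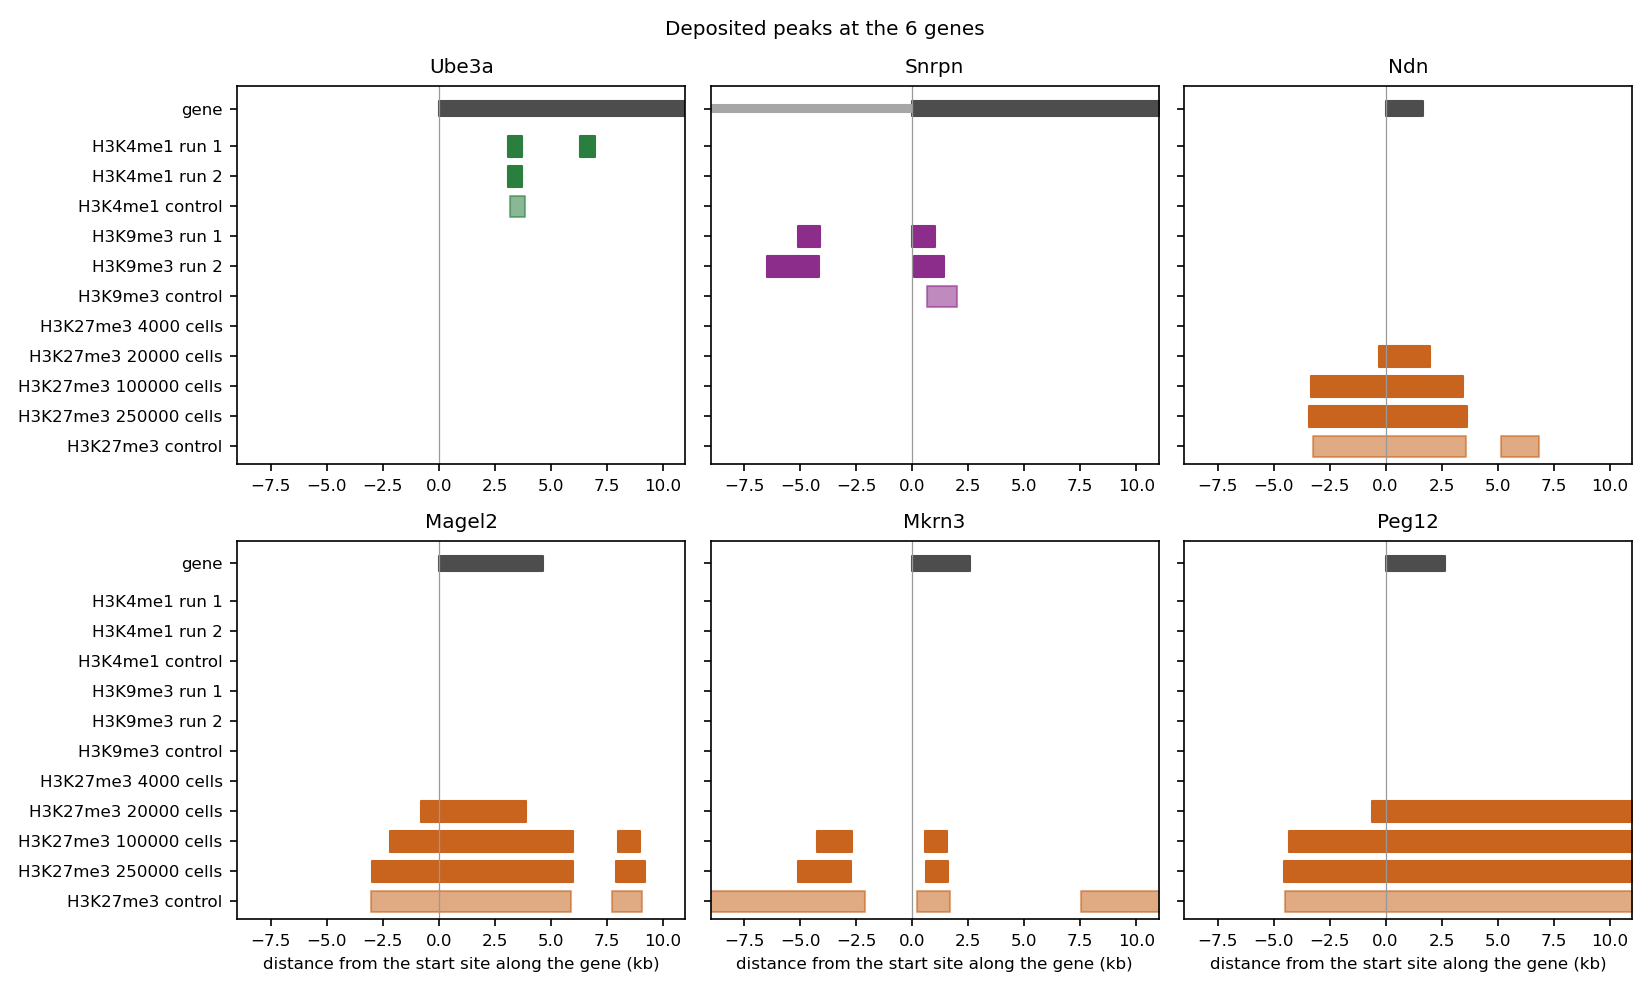
Deposited peaks of 11 samples (rows) against distance from the start site along each of the 6 genes, in kb, with H3K4me1 in green, H3K9me3 in purple, H3K27me3 in orange and controls made without bisulfite paler. The dark bar is the gene, and for Snrpn the pale bar is the part upstream of the internal start; Snrpn has purple bars, Ube3a green ones and the other 4 genes orange ones.

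At the internal Snrpn promoter most calls of the H3K9me3 libraries were methylated and most of the H3K4me1 libraries were not. No H3K4me1 list had a peak at Snrpn, and whether its calls there came from DNA with that mark was not tested. Snrpn encodes SmN, a core protein of the spliceosome in neurons. The single H3K9me3 lists have a peak that begins 4 bp (run 1), 92 bp (run 2) and 649 bp (control) inside the transcript that starts at 60005199. They are merged in the unified peak at chr7:60003212-60005195 (1984 bp, 58 CpGs), which begins 4 bp inside. In that peak H3K9me3 run 2 had 141 of 158 calls methylated (89.2%, 83.4 to 93.2) and run 1 had 39 of 44 (88.6%, 76.0 to 95.05). H3K4me1 run 2 had 1 of 39 (2.56%, 0.454 to 13.2) and run 1 had 0 of 11, which allows up to 27.3%. The intervals of the marks do not overlap in either run. H3K27me3 had 0 of 15 calls methylated from 250000 cells, which allows up to 20%, and 1 of 10 from 100000 cells. It had 1 call, methylated, from 20000 cells and no call from 4000 cells. H3K27me3 fragments seldom reached this peak. Calls per CpG there were 0.149 times the library's mean for 250000 cells, against 9.23 times for H3K9me3 run 2 and 1.48 times for H3K4me1 run 2.

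Single CpGs of the peak showed the same split. H3K9me3 run 2 read 50 of the 58 CpGs, of which 38 were methylated in every call, 48 in at least 1 call and 2 in none. H3K4me1 run 2 read 31, of which 30 were unmethylated in every call and 1 was methylated in 1 of its 2 calls. At the 29 CpGs read in both libraries, H3K9me3 had 82 of 90 calls methylated (91.1%, 83.4 to 95.4) and H3K4me1 had 1 of 35 (2.86%, 0.506 to 14.5). At 26 of the 29, H3K9me3 was methylated in more than 50% of calls and H3K4me1 in none. The difference was as large at the shared CpGs as over the whole peak. No CpG had more than 9 calls in H3K9me3 run 2 or more than 2 in H3K4me1 run 2, so single CpGs are imprecise. The CpG inside GCGGCA at the start site was methylated in the 1 H3K9me3 run 2 call that covered it and unmethylated in both H3K4me1 run 2 calls. Over all 7 CpGs of the printed sequence H3K9me3 run 2 had 3 of 3 calls methylated, run 1 had 0 of 2 and H3K4me1 run 2 had 0 of 8, too few for a level in the H3K9me3 runs.

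**Figure D2:**
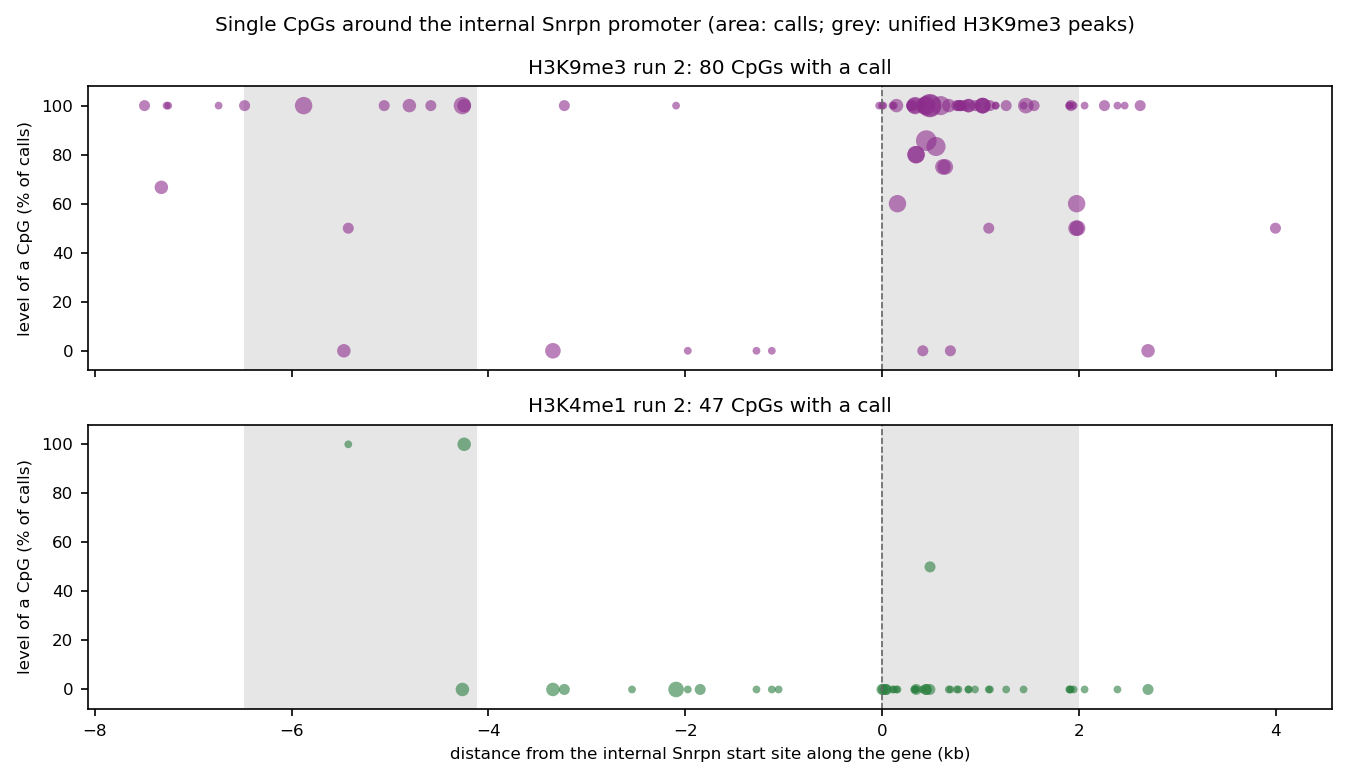
Methylation level of single CpGs (percent of calls) in H3K9me3 run 2 (top) and H3K4me1 run 2 (bottom) against distance from the internal Snrpn start site in kb, with point area proportional to calls and unified H3K9me3 peaks in grey. In the peak that begins 4 bp past the start, purple points lie mostly at 100% and green points at 0 except 1.

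A second unified H3K9me3 peak, at chr7:60009322-60011677, lay 4123 to 6478 bp upstream of the internal start and held 8 CpGs. H3K9me3 run 2 had 21 of 25 calls methylated there (84.0%, 65.3 to 93.6) and run 1 had 7 of 9. H3K4me1 run 2 had 4 of 7. The intervals overlap, so a difference between the marks was not detectable at this depth. This upstream peak was in the lists of both bisulfite runs and absent from the control list. The 3 upstream Snrpn starts had 0 to 4 calls in any library within 500 bp, too few for a level. Across the whole of Snrpn, which is 467683 bp long and overlaps the listed genes Snurf and Snhg14, H3K9me3 run 2 had 374 of 465 calls methylated (80.4%, 76.6 to 83.8). The whole of that library was at 81.9%. H3K27me3 from 250000 cells had 161 of 256 (62.9%, 56.8 to 68.6), with calls per CpG 0.0607 times the library's mean.

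The comparison of marks was tested in 1-kb windows with at least 10 calls in both libraries, by a two-sided Fisher's exact test with Benjamini-Hochberg adjustment over all windows. A window was called at an adjusted p under 0.05 and a difference of at least 20 percentage points. Each test compares 2 libraries and not the marks, which have 1 library each in it. Between H3K9me3 run 2 and H3K4me1 run 2, 5 windows of the 6 genes could be tested and 2 were called, both higher in H3K9me3 and both at Snrpn. Over the genome 982 of 14485 windows (6.78%) were called higher in H3K9me3 and 23 (0.159%) lower. At chr7:60004001-60005000 H3K9me3 had 113 of 124 calls methylated (91.1%, 84.8 to 94.97) and H3K4me1 had 1 of 23 (4.35%, 0.772 to 21.0). This difference of 86.8 points had an adjusted p of 1.61e-14 by Fisher's exact test, and 33 of the 14485 windows (0.228%) had a difference at least as large, itself included. At chr7:60005001-60006000, which holds the start site, 11 of 13 H3K9me3 calls (84.6%, 57.8 to 95.7) and 0 of 12 H3K4me1 calls were methylated, with an adjusted p of 0.000786 by the same exact test. A count of 0 in 12 calls allows a level of up to 25%.

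The other 3 windows tested at the genes were not called. At chr7:59228001-59229000, which holds the Ube3a start, both marks were at 0, with 11 calls in H3K9me3 and 41 in H3K4me1. At Peg12, chr7:62463001-62464000, H3K9me3 had 1 of 16 calls methylated and H3K4me1 2 of 31. At Mkrn3, chr7:62419001-62420000, H3K9me3 had 1 of 15 and H3K4me1 3 of 11, with an adjusted p of 0.778 by Fisher's exact test. Ndn and Magel2 had no window with 10 calls in both libraries and were not tested. The Snrpn pattern was set against other genes by the levels of the window with the largest difference in each, over H3K9me3 run 2 and H3K4me1 run 2. Of 6476 genes with a tested window, the closest were Pgk1, Fdft1, Cnn3, Kcnq1 and Gnas, with mean absolute differences from Snrpn of 0.969, 1.32, 2.44, 2.63 and 2.72 percentage points. The Pgk1 window was at 92.7% in H3K9me3 and 4.69% in H3K4me1, and the Gnas window at 92.2% and 0. H3K27me3 was left out of this measure after the values were seen, because the Snrpn window had 6 H3K27me3 calls, under the minimum of 10.

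**Figure D3:**
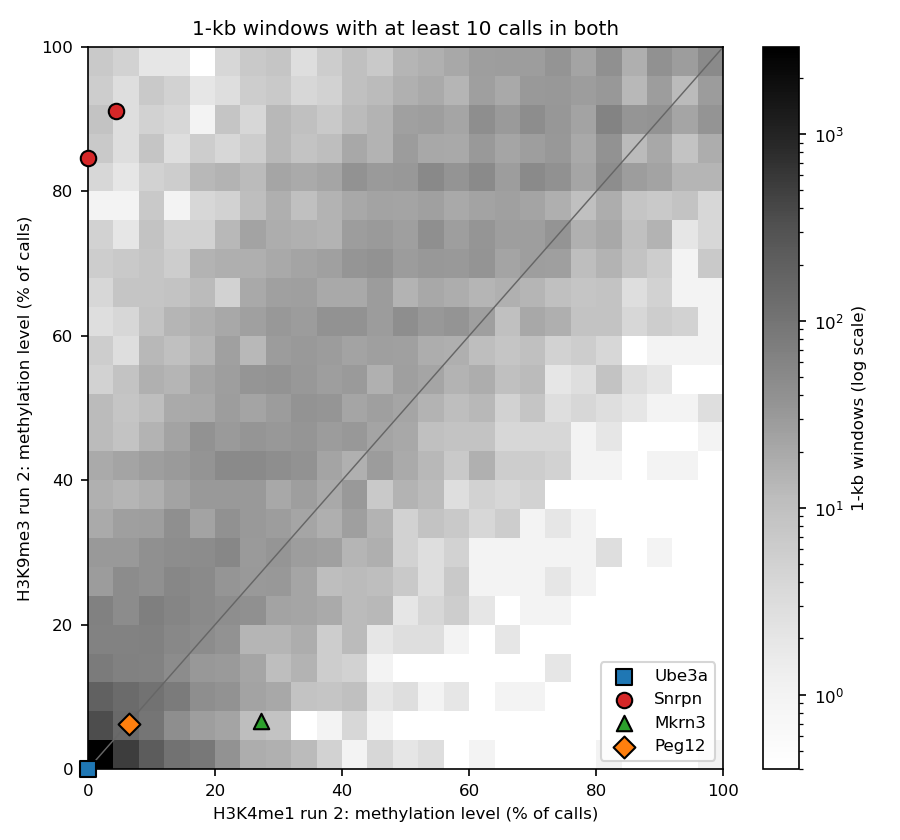
Methylation level (percent of calls) of 14485 windows of 1 kb in H3K4me1 run 2 (x axis) against H3K9me3 run 2 (y axis), as numbers of windows per square on a log grey scale, with the 5 windows of the domain as coloured symbols. The 2 Snrpn windows sit at the upper left, at 91.1% against 4.35% and at 84.6% against 0, and the Ube3a, Mkrn3 and Peg12 windows in the lower part.

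Ndn, Magel2, Mkrn3 and Peg12 stand together at the distal end of the domain and are genes without introns or nearly so, transcribed from the paternal copy. Ndn encodes necdin and Magel2 a relative of it in the MAGE family, Mkrn3 encodes a RING finger protein that restrains the onset of puberty, and Peg12 is a relative of the Frat genes, which act on GSK3 in Wnt signalling. Their H3K27me3 peaks differed in width. The unified peak at Ndn, chr7:62344847-62351919, was 7073 bp wide and that at Magel2, chr7:62373940-62382977, was 9038 bp wide, and both covered the whole gene. At Mkrn3 a peak of 1509 bp, chr7:62418447-62419955, lay inside the gene, 198 to 1706 bp past the start. Peg12 lay inside a domain of 46799 bp, chr7:62422265-62469063, and 88 of 18122 unified H3K27me3 peaks (0.486%) were at least as wide. This domain also reached the upstream flank of Mkrn3 in the unified list, as did the peak of the control. From 100000 and 250000 cells that flank had a separate peak, 1562 and 2352 bp wide, apart from the one at Peg12. At Ndn the peak was 2284 bp wide from 20000 cells, 6813 from 100000 and 7073 from 250000, and at Peg12 it was 22328, 41971 and 42004 bp wide. The peak inside Mkrn3 was 1001 bp wide from both 100000 and 250000 cells. The control gave 6838 bp at Ndn, 46745 bp at Peg12 and 1509 bp inside Mkrn3. Sequencing depth rose with the cell number in these libraries, and the parts of cells and depth in peak width cannot be told apart.

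Within 500 bp of their start sites 3 of these 4 genes had low methylation on H3K27me3 fragments. Their levels are compared by intervals of counting error only, without replicate error. Magel2 had 312 of 3283 calls methylated from 250000 cells (9.50%, 8.55 to 10.6), 172 of 2176 from 100000 (7.90%, 6.84 to 9.11) and 35 of 411 from 20000 (8.52%, 6.19 to 11.6). Ndn had 90 of 1750 (5.14%, 4.20 to 6.28), 68 of 1093 (6.22%, 4.94 to 7.81) and 20 of 276 (7.25%, 4.74 to 10.9). Peg12 had 9 of 1556 (0.578%, 0.305 to 1.10), 10 of 1053 (0.9497%, 0.517 to 1.74) and 2 of 138 (1.45%, 0.398 to 5.13). In these 3 libraries the order was Magel2, Ndn, Peg12. From 100000 and 250000 cells the interval of Peg12 overlapped with neither of the others. Those of Magel2 and Ndn overlapped from 100000 cells but not from 250000, and from 20000 cells that of Ndn overlapped with both. From 4000 cells the counts were 2 of 47 at Magel2, 0 of 11 at Ndn and 0 of 11 at Peg12, where 0 of 11 allows up to 27.3%. Mkrn3 had 0 of 32 methylated calls from 250000 cells (limit 9.38%), 0 of 13 from 100000 and 0 of 14 from 20000. For scale, the median over 17568 promoters with at least 10 calls in the 250000-cell library was 2.70%, with quartiles 0 and 32.4%. Calls per CpG at these start sites were 44.9 times the library's mean at Magel2, 23.4 times at Ndn, 13.3 times at Peg12 and 0.368 times at Mkrn3.

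**Figure D4:**
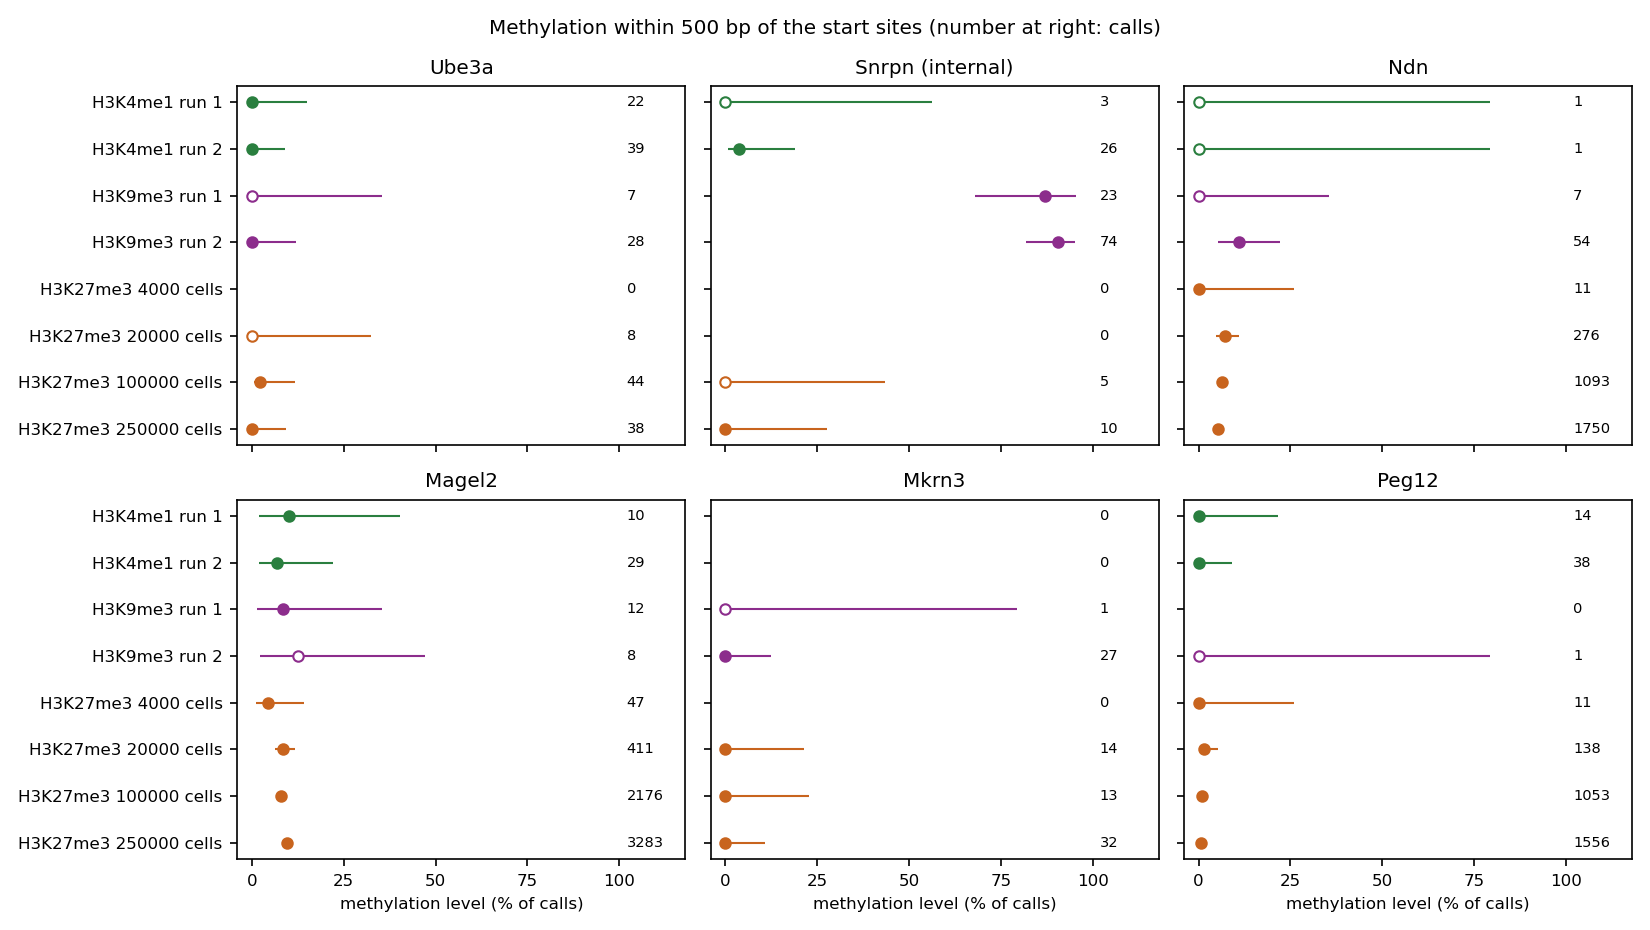
Methylation level (percent of calls) within 500 bp of the start site in 8 bisulfite libraries (rows) for the 6 genes, with 95% Wilson intervals, numbers of calls at the right and open points for fewer than 10 calls. At the internal Snrpn start H3K9me3 lies at 87.0 and 90.5% while every library with 10 or more calls at the other genes lies at or below 11.1%.

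In the Ndn promoter printed above, the single CpGs read from 250000 cells differed. The first CpG, near the 5′ end of the sequence, was methylated in 7 of 9 calls (77.8%), and the other 10 were between 0 and 5.66%. The first CpG of the Magel2 sequence was methylated in 12 of 27 calls (44.4%), and the other 9 lay between 0 and 15.6%. In the Peg12 sequence 11 of 12 CpGs had no methylated call and the remaining 1 had 1 of 39 (2.56%). The low level thus covered the CpGs next to the start in all 3 sequences, and in Peg12 the distal CpGs as well.

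Past the start site the level in the same H3K27me3 library rose at different distances, within Ndn, Magel2 and Mkrn3 but only around the gene's end in Peg12. In Ndn from 250000 cells it was 5.05% (4.06 to 6.27) in the first 500 bases of the gene, 60.5% (56.4 to 64.5) in the next 500 and 80.5% (73.9 to 85.7) in the 500 after those. In Magel2 the same steps were 7.44% (6.52 to 8.47), 61.5% (55.2 to 67.5) and 85.0% (79.8 to 89.0), and the level then stayed between 81.4 and 91.1% in 500-base steps up to 4500 bases. In Peg12 it was 0.625% (0.317 to 1.23), 0.356% (0.173 to 0.733) and 6.65% (4.64 to 9.44). It reached 88.5% (71.0 to 96.0) in the step that starts 2500 bases past the start, which runs past the end of this gene of 2640 bp. The low stretch was therefore longer in Peg12 than in Ndn or Magel2, by intervals that do not overlap in the step that starts at 500 bases. In Mkrn3 the values were 0 of 23 calls, 2 of 90 (2.22%), 8 of 95 (8.42%) and, in the step that starts at 1500 bases, 10 of 23 (43.5%, 25.6 to 63.2). On the upstream side, Ndn was at 88.6% (74.0 to 95.5) in the step from 1500 to 1000 bases before the start. Peg12 was at 78.3% (58.1 to 90.3) in that from 1000 to 500 bases before it. Other upstream 1-kb windows were lower, with 17 of 36 calls methylated (47.2%) at chr7:62346001-62347000 for Ndn. For Peg12, chr7:62467001-62468000 had 39 of 97 (40.2%). Magel2 had 45 of 141 (31.9%) at chr7:62375001-62376000 and 44 of 52 (84.6%) at chr7:62374001-62375000.

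By single CpG with at least 10 calls from 250000 cells, Peg12 had 154 of 185 under 20%, 19 from 20 to 80% and 12 over 80%. Magel2 had 41 of 113 under 20%, 27 between and 45 over 80%. Ndn had 41 of 75 under 20%, 23 between and 11 over 80%. Mkrn3 had 7 such CpGs, 4 of them under 20% and 3 between. Over gene body and flanks this gave 13.3% (12.5 to 14.2) of 6030 calls in Peg12, 25.7% (24.1 to 27.4) of 2732 in Ndn and 31.2% (30.0 to 32.6) of 4897 in Magel2. Mkrn3 had 19.3% (15.4 to 23.9) of 331 calls from 250000 cells and 29.8% (24.003 to 36.3) of 208 from 100000. These sums mix start sites with methylated flanks, and the intervals of the 2 Mkrn3 values just miss each other. Over the gene body alone Peg12 was at 2.47% and Mkrn3 at 8.66%, and as the mean of single-CpG levels Ndn was at 41.3% and Magel2 at 59.0%.

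**Figure D5:**
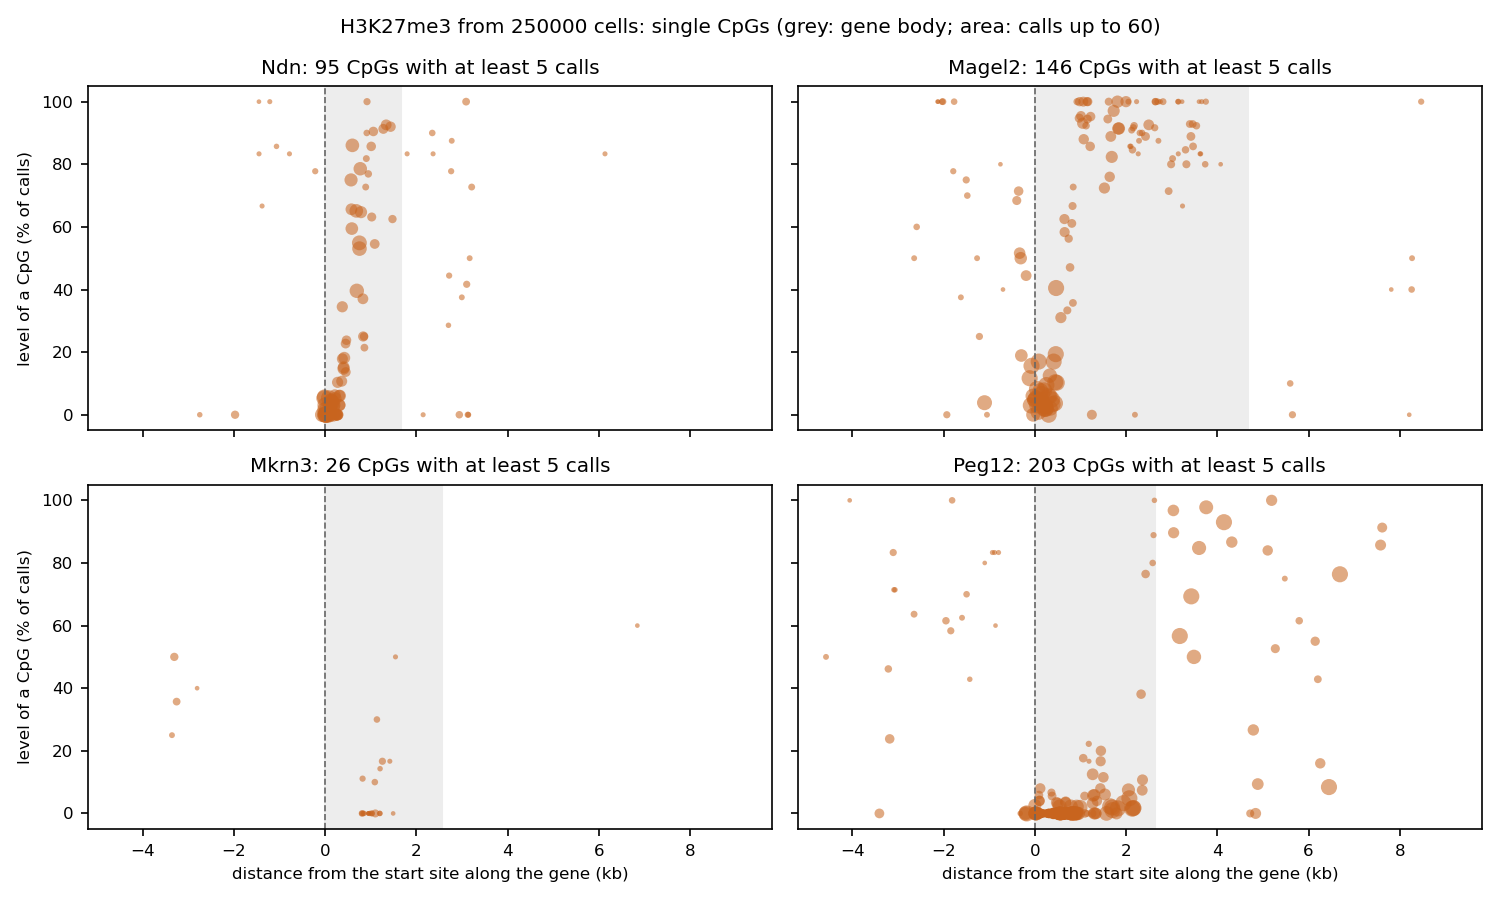
Methylation level of single CpGs with at least 5 calls (percent of calls) in H3K27me3 from 250000 cells against distance from the start site in kb, for Ndn, Magel2, Mkrn3 and Peg12, with the gene body in grey and point area growing with calls. Points near the start lie close to 0 in Ndn, Magel2 and Peg12, climb within the gene in Ndn and Magel2, and stay low through most of the Peg12 gene.

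The test between the H3K27me3 libraries from 100000 and 250000 cells shows how often this rule calls windows of 1 mark. It covered 35 windows of the 6 genes and called 0 by Fisher's exact test, against 17 of 165178 windows (0.0103%) in each direction. At an unadjusted p under 0.05 there were 2, at Mkrn3 and Peg12. Genome-wide shares at this unadjusted threshold were not counted, here or below, so such counts are not read as a result. The Peg12 window chr7:62460001-62461000 had 101 of 125 calls methylated from 100000 cells (80.8%) and 189 of 207 from 250000 (91.3%), with an adjusted p of 0.532 by Fisher's exact test. The Mkrn3 window chr7:62419001-62420000 had 10 of 81 calls methylated from 100000 cells (12.3%, 6.85 to 21.3) and 6 of 152 from 250000 (3.95%, 1.82 to 8.34), with an adjusted p of 0.766 by the exact test. At the Ndn window chr7:62349001-62350000 the libraries had 223 of 358 (62.3%) and 322 of 490 (65.7%), and 44 of 70 from 20000 cells.

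Against H3K4me1 run 2, H3K27me3 from 250000 cells could be tested in 6 windows of the genes, and 0 were called by Fisher's exact test. Over the genome 632 of 57920 windows (1.09%) were called higher in H3K27me3 and 268 (0.463%) lower. With each CpG counted once the split was 45 higher (0.111% of 40422 windows) and 57 lower (0.141%). The Mkrn3 window just named had the 1 unadjusted p under 0.05, with 6 of 152 calls against 3 of 11 in H3K4me1 and an adjusted p of 0.218 by the exact test. In the window just past the Magel2 start, chr7:62377001-62378000, H3K27me3 had 368 of 2956 calls methylated (12.4%) and H3K4me1 1 of 28. Against H3K9me3 run 2, 5 windows were tested and 0 were called by Fisher's exact test, with 0 at an unadjusted p under 0.05. The genome-wide counts were 48 of 16623 (0.289%) higher in H3K27me3 and 415 (2.50%) lower. At the Ndn start, chr7:62348001-62349000, H3K27me3 had 247 of 1993 calls methylated (12.4%) and H3K9me3 7 of 57 (12.3%). The Snrpn window chr7:60004001-60005000 had 6 H3K27me3 calls and was therefore not tested. With 5 calls as the minimum it was called lower than H3K9me3, at 0 of 6 against 113 of 124 and an adjusted p of 0.000878 by the exact test, as was the next window, at 0 of 8 against 11 of 13 with 0.0376. Windows of 2000 bp and a grid moved by 500 bp also gave 1 such call at Snrpn each. Their adjusted p-values by the exact test were 3.74e-10 and 2.15e-06. At 5 calls, 2000 bp and the moved grid, 0.566, 2.09 and 2.51% of all windows tested were called lower.

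Ube3a encodes the ubiquitin ligase lost in Angelman syndrome, and it was the member with H3K4me1 peaks. They lay inside the gene, at chr7:59231831-59232571 and chr7:59235042-59235694, and held 2 and 5 CpGs. The first was in the lists of run 1, run 2 and the control, and the second in that of run 1. In the second, H3K4me1 run 2 had 8 of 20 calls methylated (40%, 21.9 to 61.3) and run 1 had 2 of 11 (18.2%, 5.14 to 47.7). The start site, with 95 CpGs within 500 bp, had no methylated call in H3K4me1 run 1 (22 calls), run 2 (39) or H3K9me3 run 2 (28). The limits were 13.6, 7.69 and 10.7%. H3K27me3 had 1 of 44 from 100000 cells and 0 of 38 from 250000. Over gene body and flanks H3K4me1 run 2 had 48 of 134 calls methylated (35.8%, 28.2 to 44.2). Calls per CpG at the start in H3K27me3 from 250000 cells were 0.2299 times the library's mean.

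Summed over all CpGs between the 6 genes, the domain was poor in H3K4me1 and H3K27me3. Calls per CpG there were 0.0117 times the library's mean in H3K4me1 run 2, 0.196 times in H3K27me3 from 250000 cells and 0.710 times in H3K9me3 run 2. Over the 6 regions summed they were 0.242, 2.28 and 0.621 times. The 2.28 came mainly from Ndn, Magel2 and Peg12, at 12.5, 13.9 and 16.7 times, while Mkrn3 was at 1.43. Snrpn (0.0607) and Ube3a (0.0664) were below the value between the genes. H3K27me3 peaks also reached into the space between. The peak of 46799 bp shares 12193 bp with the Peg12 region and 2889 bp with that of Mkrn3. A peak of 10399 bp, at 2.47 times the mean, shares 9 bp with the Mkrn3 region. The level on H3K9me3 run 2 fragments between the genes was 79.3% (77.8 to 80.7) of 3004 calls, against 81.9% in the whole library. The unified lists had 2 H3K4me1, 14 H3K9me3 and 9 H3K27me3 peaks in the domain. Of 18 neighbouring genes on the list, 15 were found in the gene table, and 4 had an H3K4me1, 7 an H3K9me3 and 5 an H3K27me3 peak, against 47.4, 16.3 and 42.3% of all protein-coding genes. The H3K9me3 count holds the same peaks more than once. Snurf and Snhg14 overlap Snrpn and its peaks, and Ipw lies inside Snhg14. Some listed entries, such as Snhg14, are also not protein-coding. Snhg14, the long RNA that hosts the Snord115 and Snord116 clusters and runs antisense to Ube3a, had 5 H3K9me3 peaks. Of its H3K9me3 run 2 calls 1182 of 1441 were methylated (82.0%, 79.96 to 83.9), near the 81.9% of the whole library. Gabra5, which encodes a GABA receptor subunit, had 2 H3K27me3 peaks and, from 250000 cells, a level of 14.8% (14.2 to 15.4) of 13837 calls.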

How the data were processed

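CUT&Tag-BS libraries of E14 mouse embryonic stem cells were analysed from the CpG table and peak lists the authors deposited. Per the submitters' processing notes, cutadapt 1.12, Bismark 0.23.0, Bowtie2 2.3.0, HOMER 4.10.3 and bedtools 2.29.2 were used with build mm10; their settings and the treatment of duplicate reads are not given in the sources used here. The table holds, per the file headers, for 21908008 CpGs and 8 bisulfite libraries, a count of methylated and a count of total calls, not normalized. The deposited peak lists hold positions without scores. All 407620 CpGs of the 32619 RefSeq promoter entries (GRCm38.p6) were positions in the table, and gene and promoter positions were taken from RefSeq.

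Calls were summed over genes, 1-kb windows, peaks and 500 bp on both sides of start sites, on chromosomes 1 to 19 and X, in Python 3.11.15 with numpy 2.4.6, scipy 1.17.1 and pandas 2.3.3. Wilson 95% intervals and limits of 3 counts cover counting error. Windows with at least 10 calls in both libraries were compared by Fisher's exact test, adjusted over all windows. On simulated data the test recovered 63.0% of 200 windows changed by 50 points for H3K9me3 against H3K4me1. Simulated calls were independent, unlike real calls on 1 fragment, and only windows with a level under 50% were changed, so this share need not hold for the data. The runs of a mark were treated as repeat sequencing of 1 library, which the labels do not state, and the deeper run 2 was used. Peak counts used an overlap of at least 1 bp. The genes named are the 6 of the domain and the listed neighbours and markers; windows named are those called, those at gene ends and under peaks, and the 1 with the largest difference in each gene; the Snrpn windows under other observations were chosen after their values were seen. The genes, lists and tests were chosen with earlier results of these data known. Alternatives were other call minimums, window sizes and grids, shared CpGs, each CpG counted once, the other run or cell number, and other region and peak rules.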

Additional observations from a re-analysis of the deposited data

How the results depend on the processing

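The calls at Snrpn rest on few H3K4me1 and H3K27me3 calls, and depth sets which windows can be tested. Against 2 windows called higher in H3K9me3 than in H3K4me1, the count was 1 with at least 20 calls per window, 1 over CpGs called in both libraries and 1 with each CpG counted once. It was also 1 with the grid shifted by 500 bp, in a window that straddles both. The shares called higher over the genome were 6.78% at first and, in the order given, 15.4, 6.58, 3.73 and 6.89%. At 20 calls and at shared CpGs fewer windows of the genes could be tested (1 and 2, against 5). The window chr7:60004001-60005000 was called in each of the 7 alternatives in which it was tested, with adjusted p-values by Fisher's exact test, or the test by run, from 1.5e-21 to 2.64e-08. That at chr7:60005001-60006000 was called in each of 4, from 4.18e-05 to 0.00194. Run 1 alone left no window of the genes with 10 calls in both marks, so it gave no value, nor did run 1 of H3K9me3 against H3K27me3. With the run number as replicate block (Cochran-Mantel-Haenszel test) 3 windows were called (6.8% genome-wide), the same number as with summed calls (8.54%). The labels give the runs only a number, and they were taken as 1 library, so this is not read as a paired test of separate samples.

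For H3K27me3 against H3K9me3 the count of 0 became 2 at 5 calls per window, 1 with 2000-bp windows and 1 with the shifted grid. Each was at Snrpn and lower in H3K27me3. Genome-wide 0.566, 2.09 and 2.51% of windows were called lower in these settings, against 2.5% in the main one. The comparisons of H3K27me3 with H3K4me1 and between cell numbers gave 0 in each alternative run. Genome-wide the largest shares called in 1 direction were 3.94 and 0.054%, both with 2000-bp windows. Genome-wide, windows higher in H3K9me3 than H3K4me1 went from 982 (6.78% of those tested) to 305 (3.73%) with each CpG counted once. At 20 calls the count fell to 636, but of only 4128 windows tested (15.4%). It was 1824 (9.99%) at 2000 bp, 1975 (8.54%) with runs summed and 1572 (6.8%) with the block. Those higher in H3K27me3 than H3K4me1 went from 632 (1.09%) to 45 (0.111%) with each CpG counted once. Lower ones went from 268 (0.463%) to 57 (0.141%). The higher ones were 204 (0.34%) at 500 bp, 238 (0.485%) at shared CpGs and 2312 (3.94%) at 2000 bp. Windows lower in H3K27me3 than H3K9me3 went from 415 (2.5%) to 230 (2.35%) with each CpG counted once. Of the windows higher in 100000 than in 250000 cells, 17 (0.0103%) became 0 with each CpG counted once and 78 (0.0514%) at 2000 bp.

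Levels over gene bodies without flanks were 50.0% in Ube3a in H3K4me1 run 2. In H3K27me3 from 250000 cells they were 8.66% in Mkrn3 and 2.47% in Peg12. The mean of single-CpG levels in that H3K27me3 library was 41.3% in Ndn, 59.0% in Magel2 and 18.2% in Peg12. Snrpn was at 85.6% in H3K9me3 run 2 over CpGs with at least 3 calls. Values from different libraries here do not compare the genes. With peaks at least as wide as the list's median, 0 genes had an H3K4me1 peak.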

Other observations

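Away from the internal start of Snrpn, 2 windows were picked out after their values were seen. The window chr7:60209001-60210000, with 25 CpGs, had 10 of 13 calls methylated in H3K27me3 from 4000 cells, 4 of 7 from 20000 and 6 of 9 from 100000, but no call from 250000 cells, and 4 of 9 in H3K9me3 run 2. The window chr7:60391001-60392000 had 22 of 31 calls methylated in H3K27me3 from 250000 cells. The deepest library thus had no call where the shallowest had 13, and the cause was not tested.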
